A study of Rattus norvegicus with 12 samples.

Results

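The genes described here encode proteins of the cytosolic ribosome, most but not all of them, in rat fibroblast-like synoviocytes (FLS). They were taken by name from the deposited table of 22442 gene records: every symbol of the form Rpl or Rps plus a number and at most 1 letter, the stalk genes Rplp0, Rplp1 and Rplp2, and Rpsa. This gave 71 genes, 41 of the large and 30 of the small subunit, and where a name had several records the record of highest mean FPKM was used (78 records carried a member name). FPKM counts fragments per kilobase of transcript, scaled to the size of the library, so levels of different genes can be compared per length. The set includes the paralogs Rpl3l, Rpl39l and Rps27l, and pseudogene records and records named only by a locus identifier were left out. It is not the whole ribosome: Rpl8, Rpl10, Rpl13a, Rpl30, Rpl35a, Rpl37, Rpl38, Rps13 and Rps26 are not in it. For Rpl8, Rpl30, Rpl37 and Rps13, records described as the protein but named by a locus identifier were among those left out.

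The FLS were grown from synovium of male SD rats in which complete Freund's adjuvant had induced adjuvant arthritis, and all 4 groups therefore share arthritic cells, taken at passage 3. FCA was kept in DMEM alone, and AT10, AT1 and AT01 received taurochenodeoxycholic acid (TCDCA), a taurine-conjugated bile acid, at 10, 1 and 0.1 µM for 12 h. Poly(A) RNA was sequenced in 3 libraries of each group, 12 in all, and the study asked which genes TCDCA changed. Neither how many of the rats gave the cells of each library nor whether the replicates were separate cultures is given in the sources used here, so every p-value measures only the spread between these libraries, which may be technical.

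Each ribosome is built from a large subunit, which joins amino acids, and a small subunit, which reads the mRNA. Most ribosomal proteins are present once per ribosome, and their mRNAs are known for being abundant and for a shared 5′ start, the terminal oligopyrimidine (TOP) tract, through which the growth pathway mTORC1 and the binding protein LARP1 regulate their translation. Fibroblasts that secrete matrix, as FLS do, translate heavily. Some members also act outside the ribosome: Rpl5 and Rpl11 bind the p53 inhibitor MDM2, and Rps6 is phosphorylated by S6 kinase.

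The libraries carried the transcripts of fibroblasts. Of 12 FLS markers, 10 had a record, all 10 had a mean of at least 1 FPKM, and their sum was 3690 to 5577 FPKM per library. The 5 endothelial markers with a record summed to at most 0.21 FPKM, and the 4 T and B cell markers to at most 0.08 FPKM with 2 of them at 0 throughout. The 4 macrophage markers with a record summed to 5.71 to 21.9 FPKM, and those of adipocytes and chondrocytes to 26.9 to 43.0 and 3.11 to 8.16 FPKM. The deposited FPKM carry no read counts per gene. The study lists reads, base quality and GC content per library, and only the order of libraries in these was used here. In bulk RNA, fewer cells of a type and less RNA per cell cannot be told apart.

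The member genes were among the most abundant transcripts of these cells. Of the 71 genes, 70 averaged 1 FPKM or more across the 12 libraries and were tested. Their median mean level was 273 FPKM (quartiles 173 and 427), against 6.51 FPKM over all 11611 records tested at the same minimum. The small subunit had a median of 345 FPKM and the large subunit 242 FPKM. The mean of 63 members reached 100 FPKM, and 26 of the 100 most abundant records were members. Summed over the 71 genes, they took 7.36% to 8.71% of each library's total FPKM.

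Rpsa, the small subunit protein that also serves as a laminin receptor, had the highest mean at 1202 FPKM, with a lowest library of 1070.0 and a highest of 1339 FPKM. Next came Rpl23a, near the exit of the peptide tunnel, with a mean of 936 FPKM, and Rps2, at the entry of the mRNA channel, with 933 FPKM. Rplp0, the base of the stalk that recruits translation factors, had a mean of 868 FPKM. These are levels per length, and between such neighbours the order is smaller than the spread over libraries: Rpl23a ran from 776 to 1013 FPKM and Rplp0 from 749 to 970 FPKM.

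At the low end, the paralog Rpl3l, known from striated muscle, had values of 0 to 0.17 FPKM and was not tested. Rpl39l, the paralog of Rpl39 known from testis, had a mean of 3.63 FPKM, and Rpl39 itself 32.9 FPKM. Rplp2, the partner of Rplp1 in the stalk, had a mean of 13.9 FPKM, whereas Rplp1 had 175 FPKM and Rplp0 868 FPKM, so the 3 stalk genes stood at very different listed levels. Rpl22, an RNA-binding protein of the large subunit, had a mean of 46.1 FPKM. The p53-linked pair was also unequal, with Rpl5 at 427 FPKM and Rpl11 at 99.1 FPKM. Many ribosomal protein genes have near-identical processed copies elsewhere in the genome, and reads shared with a copy can be assigned to either, so the level of a single member is uncertain in a way that its replicate spread does not show.

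**Figure D1:**
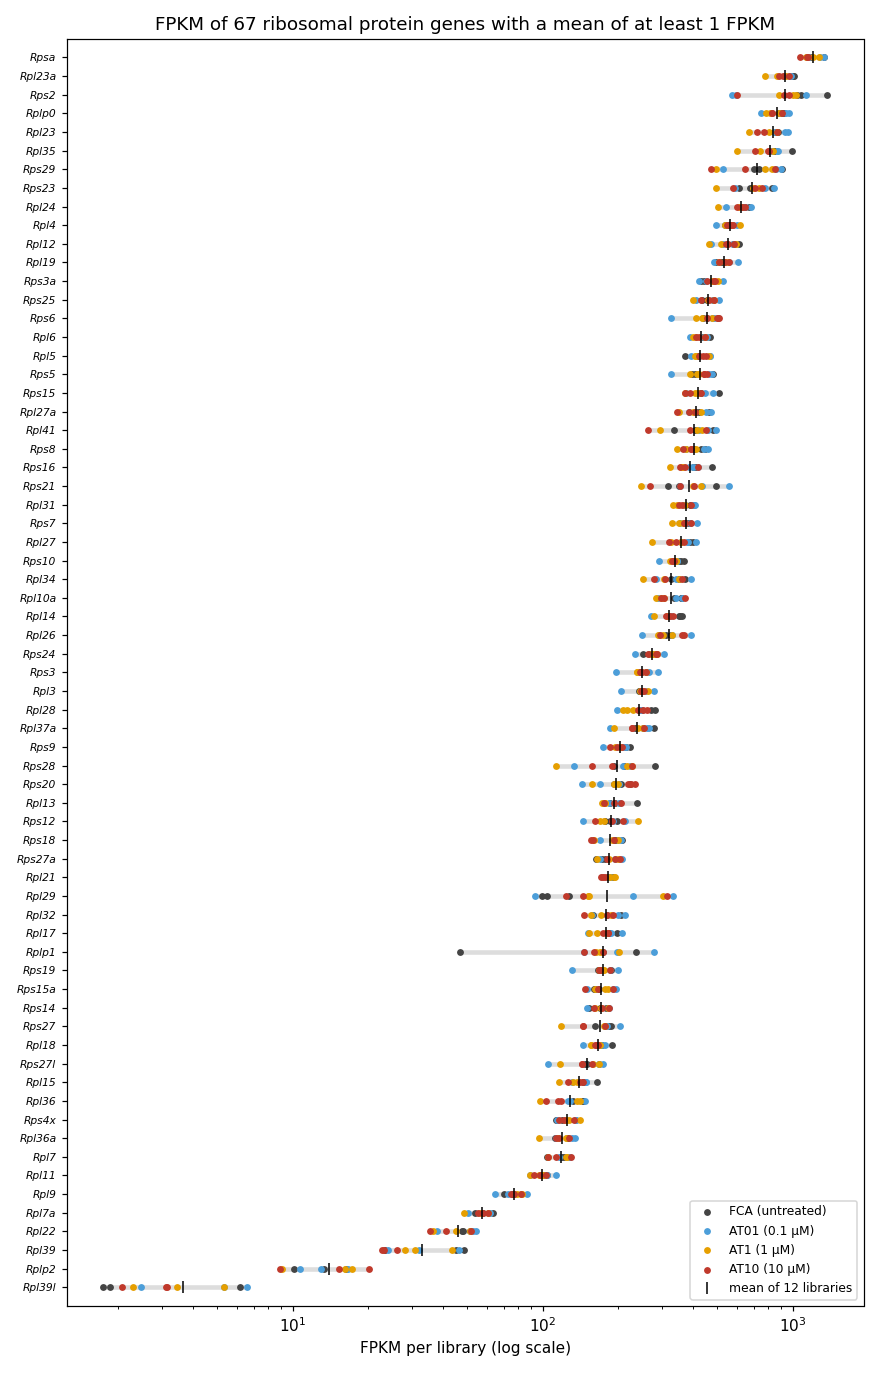
FPKM (log axis) of 67 member genes with a mean of at least 1 FPKM, 1 row per gene sorted by mean; points are the 12 libraries coloured by group, grey bars run from the lowest to the highest library and black ticks are means. Most genes lie between 100 and 1000 FPKM within a narrow range, while Rplp1, Rpl29, Rps2, Rpl39, Rplp2 and Rpl39l spread widely.

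Most members varied little. The highest library exceeded the lowest by a median of 1.37 times (quartiles 1.28 and 1.55), 47 of 70 members stayed under 1.5 times, and 8 exceeded 2 times. The median SD of log2(FPKM + 1) over the 12 libraries was 0.13 for members, 0.18 for all records tested and 0.15 for the 123 other records at or above the median member level. No member had values at 2 separate levels more than 1 log2 unit apart, a pattern found in 525 records (4.52%).

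The variation that remained was shared. Over the 12 libraries the median Pearson correlation between 2 members was 0.44 (quartiles 0.07 and 0.66, 2415 pairs), while pairs from all records tested had a median of 0.01 and pairs of the 123 other abundant records 0.07. The median was 0.40 within the large subunit, 0.48 within the small subunit and 0.44 between subunits. Pairs of mitochondrial ribosomal protein genes, which encode the separate ribosome of mitochondria, had a median of 0.07, pairs of translation factor genes 0.08 and pairs of ribosome biogenesis genes 0.10. All these correlations come from the same 12 libraries, which differ in depth, and they are given as a description. On the standardized scale the first principal component held 47.4% of the variance of the members and 20.6% of that of all records tested.

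When each member was correlated with the mean of the others, the median was 0.66, with 52 of 70 members above 0.5 and 22 above 0.8. The highest values were those of Rpl11 (0.95), Rpl37a (0.95), Rps15 (0.92), Rpl27a (0.91) and Rpl34 (0.90). Rpl11 shows the common course. Its FPKM were 99.4, 104.1 and 99.96 in FCA, 113, 104.1 and 89.3 in AT01, 96.9, 99.99 and 89.3 in AT1, and 97.5, 92.7 and 103 in AT10. Its lowest libraries were the third of AT01 and the third of AT1, its highest was the first of AT01, and the 4 groups overlapped. Rpl37a of the large subunit had a wider range, with 252, 279 and 234 FPKM in FCA, 261, 267 and 187 in AT01, 240, 252 and 193 in AT1, and 228, 229 and 254 in AT10. Its lowest libraries were the same as those of Rpl11, and its highest was the second of FCA. Rps15, which lies at the decoding site of the small subunit, was lowest in the third library of AT1 (370 FPKM), the second of AT10 (372 FPKM) and the third of AT01 (374 FPKM), and highest in the second of FCA (507 FPKM).

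**Figure D2:**
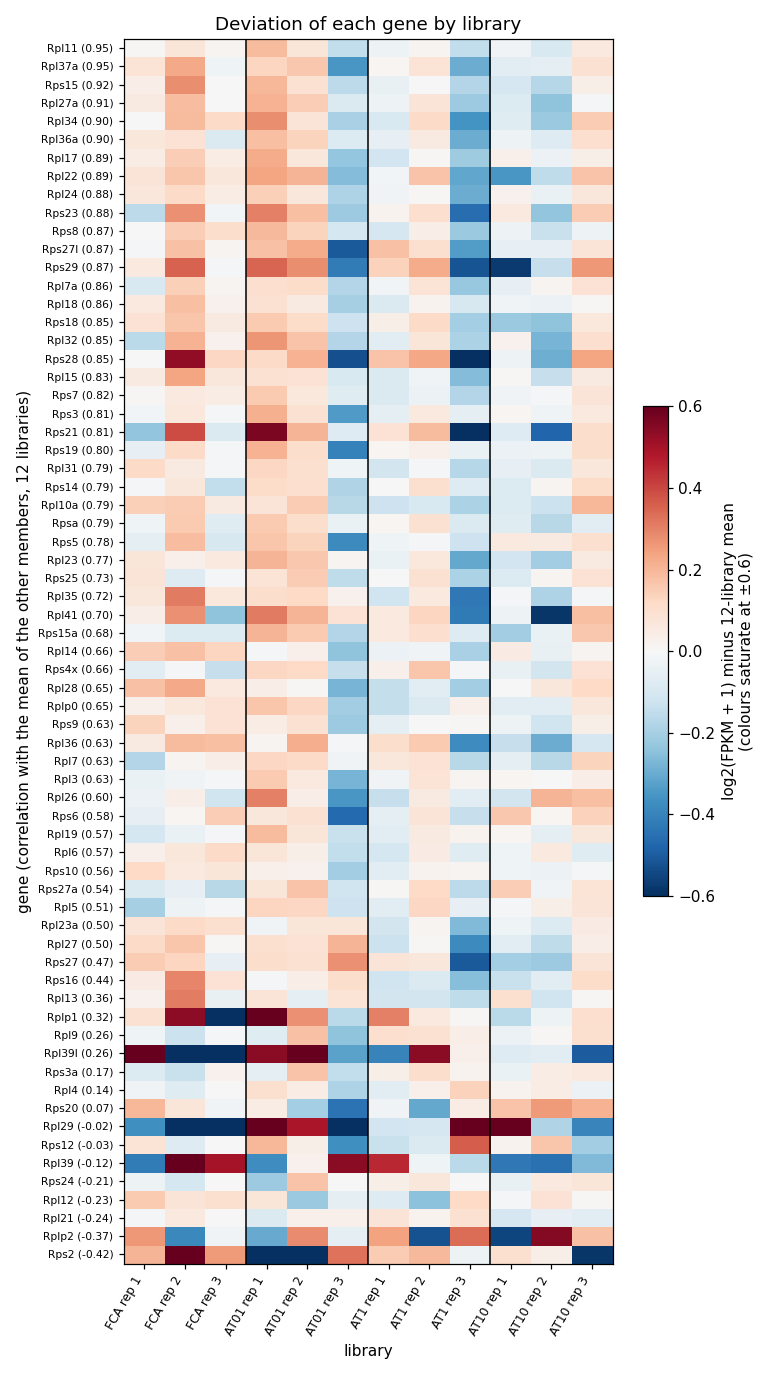
Deviation of log2(FPKM + 1) from the 12-library mean for 67 member genes (rows, sorted by the correlation given beside each name) in 12 libraries (columns, by group); red is above and blue below the gene's mean. The third libraries of AT01 and AT1 are blue and the first of AT01 red down most of the rows, while the lowest rows, from Rplp1 to Rps2, follow no common course.

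The shared course followed single libraries more than the dose. The median deviation of the members from their own 12-library mean, on the log2(FPKM + 1) scale, was 0.04, 0.11 and 0.01 in FCA. It was 0.12, 0.11 and -0.15 in AT01, -0.03, 0.06 and -0.16 in AT1, and -0.04, -0.06 and 0.07 in AT10. Each treated group thus held libraries on both sides of 0, and the widest split, 65 members above their mean in the second library of AT01 against 12 in the third, lay within 1 dose. Of the 70 members, 50 had their lowest value in the third library of AT1 or of AT01, 25 in each, and 45 their highest in the first of AT01 or the second of FCA. The variance of the member mean that lay between the 4 groups was 14.7% of the whole. Groups of 3 libraries that do not truly differ would also give a share above 0. No such reference was computed, so this share does not measure an effect of dose. Large and small subunit genes moved together, and their medians never differed by more than 0.07 in a library.

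The same libraries stood less far apart in other genes. The median deviation over all records tested lay between -0.02 and 0.03 in every library. That of mitochondrial ribosomal protein genes was -0.11 in the third library of AT01, -0.07 in the third of AT1 and 0.07 in the first of AT01, in the direction of the members and smaller. Translation factor genes lay between -0.06 and 0.08. The total FPKM of these 3 libraries were 284240, 292366 and 309696, and the range over the 12 libraries was 284210 to 309696. In the study's listing of reads, library 3 of AT01 was the deepest of the 12, while library 3 of AT1 was not at either end. In base quality, library 3 of AT1 was the lowest, but library 1 of AT01, where most members were high, also stood near the low end. In GC content, library 1 of AT01 was the highest and library 2 of FCA came next. Library 3 of AT01 shared the lowest GC content with libraries 2 and 3 of AT10, where the members' median deviation was -0.06 and 0.07. Whether depth, base quality, GC content or these totals have a part in the members' shift was not tested.

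**Figure D3:**
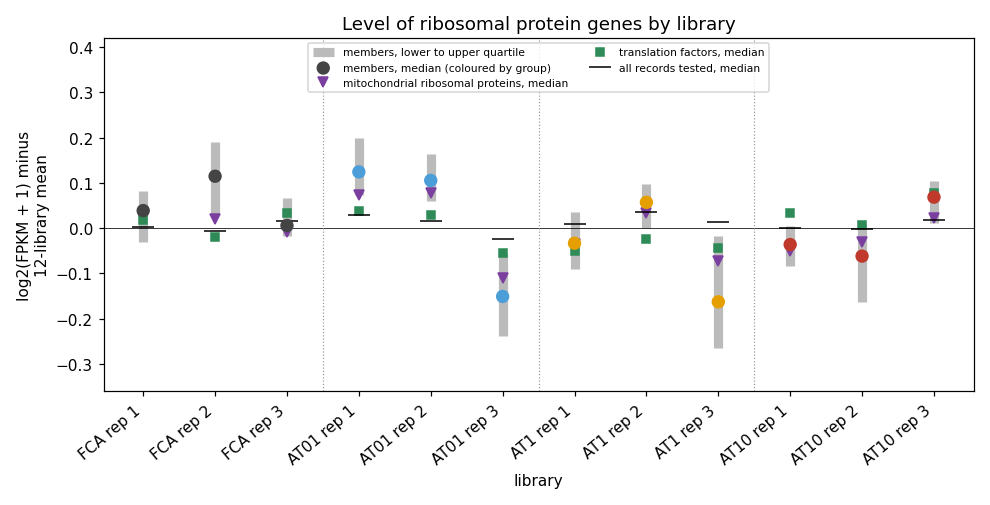
Median deviation of log2(FPKM + 1) from the 12-library mean (vertical axis) in each library (horizontal axis, by group): circles are the members with a grey bar from the lower to the upper quartile, triangles mitochondrial ribosomal proteins, squares translation factors and dashes all records tested. The members reach 0.12 in the first library of AT01 and -0.16 in the third of AT1, whereas all records stay between -0.02 and 0.03.

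A correlation with the member mean below 0 was found for 8 members. The lowest was Rps2 at -0.42. Its FPKM were 1040.0, 1376 and 1076 in FCA, 575, 592 and 1130 in AT01, 1003, 1033 and 882 in AT1, and 964, 925 and 602 in AT10. Rps2 was thus low in the first 2 libraries of AT01, where most members were high, and high in the third, where most were low. Its FCA libraries all exceeded those of AT10 and AT1, but not the third of AT01. The other record of that name was left out for its lower mean, and 6 records described as copies were left out by their names. Adding all of these lowered the ratio of highest to lowest library of Rps2 from 2.39 to 1.97.

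Rplp2 had a correlation of -0.37, and Rpl21, Rpl12 and Rps24 of -0.24, -0.23 and -0.21. Rpl21 had the smallest fold range of these, 171 to 195 FPKM, so its sign rests on little variation. Rpl12, part of the base of the stalk, ran from 462 to 613 FPKM, and Rps24 from 234 to 307 FPKM. Rplp2 changed more, between 8.89 and 20.2 FPKM, with the 2 extremes in the first and second libraries of AT10.

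The widest fold range belonged to Rplp1, the acidic stalk protein. Its values were 174, 237 and 46.7 FPKM in FCA, 279, 198 and 146 in AT01, 201, 170 and 164 in AT1, and 146, 160 and 175 in AT10. The range of 5.97 times came from a single low library, the third of FCA, and without it the values of FCA lie within those of AT01. Rpl29 had 127, 99.0 and 104 FPKM in FCA, 334, 231 and 93.3 in AT01, 152, 153 and 303 in AT1, and 316, 145 and 124 in AT10. It reached about 300 FPKM in 1 library of each TCDCA dose and in no FCA library, yet AT01 and AT10 overlapped with FCA. Rpl39l ranged over 3.75 times at under 7 FPKM. Rps28, a small protein near the mRNA exit, ranged from 113 FPKM in the third library of AT1 to 281 FPKM in the second of FCA, but in step with the other members (correlation 0.85).

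**Figure D4:**
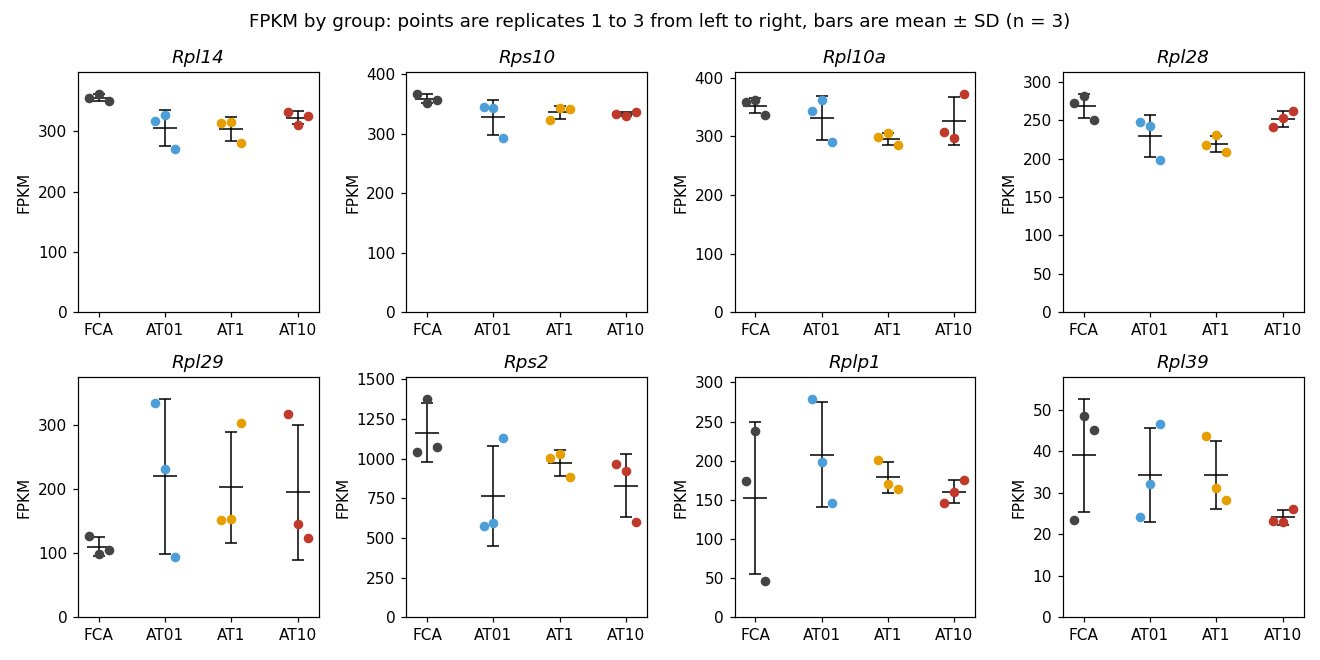
FPKM of 8 members by group (linear axes from 0); points are replicates 1 to 3 from left to right and black bars mean ± SD with n = 3. Rpl14 and Rps10 lie lower in every TCDCA library than in any FCA library by a small margin, while Rpl29, Rps2, Rplp1 and Rpl39 vary widely within groups.

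A sequence feature that the choice by name did not use is the start of the promoter. RefSeq promoters of the build GRCr8 (250 bases before and 50 after the annotated start) were found for 57 of the 71 names, 58 promoters in all. A TOP-like start, defined as a C at the start base followed by at least 4 bases that are C or T, was present in 20 of the 58 (34.5%) and in 881 of all 33469 promoters (2.63%). Allowing the C to lie within 5 bases of the annotated start gave 35 of 58 (60.3%) against 17.0%. With the C at the start base, the shares were 2 of 59 promoters (3.39%) for mitochondrial ribosomal protein genes and 0 of 35 for translation factor genes. The translation factor list includes known TOP mRNAs such as Eef1a1 and Tpt1, so a count of 0 does not show that its genes lack a TOP tract. These are descriptions of letters, not of transcripts measured in FLS. The windows below run from 10 bases before the start to the 20th base from it, with the C and its pyrimidine run in capitals. Of members named in the comparisons with FCA, Rpl36 had no such run within 5 bases of the start. Rps10 and 1 promoter of Rps27a had it only off the start base, and these genes are not shown. All windows shown here have it at the start base. They belong to stalk genes, to members that followed the common course and to members named in the comparisons with FCA.
Rplp0: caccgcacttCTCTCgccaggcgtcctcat
Rplp1: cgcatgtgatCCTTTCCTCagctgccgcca
Rpl37a: cccgttgcgtCTCTTCCTCTTCgggcttgg
Rps15: acaccgcttcCTTTTCCCagcagccgccaa
Rpl34: tccttttcctCTTCCggggacggtgcttag
Rpl14: ggccctctccCTTCTCgctgagcgccgcca
Rpl28: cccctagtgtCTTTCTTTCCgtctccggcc
Rpl10a: cttctgccttCTTTTCCggttcccgcagcc

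In GRCr8 the window of Rpl37a lies at chr9:81748081-81748110 on the plus strand and that of Rps15 at chr7:10068096-10068125 on the minus strand. Those of Rplp0 and Rplp1 lie at chr12:46718371-46718400 and chr8:71290853-71290882, both on the minus strand. The window of Rpl14 lies at chr8:129163610-129163639 on the plus strand, that of Rpl28 at chr1:78083513-78083542 and that of Rpl34 at chr2:221962264-221962293 on the minus strand, and that of Rpl10a at chr20:6390523-6390552 on the plus strand. Each spans the last promoter bases and the first transcribed bases of its gene.

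Members without the start form stood at both ends of the correlation with the member mean. Rpl11, with the highest correlation, and Rps2 and Rplp2, with the lowest, all lacked the letters near the annotated start.
Rpl11: cttgaagcttgtttggtgctggggagcatc
Rps2: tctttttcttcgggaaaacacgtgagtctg
Rplp2: cgccgccggacgccgccgaggtcgcacgcg

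These windows lie at chr5:153560783-153560812 on the minus strand for Rpl11, and on the plus strand at chr10:14251838-14251867 for Rps2 and chr1:205975911-205975940 for Rplp2. The 20 members with a TOP-like start exactly at the annotated base had a median correlation with the member mean of 0.75, and the 36 other tested members with a promoter one of 0.63. Of 2 motifs looked for on both strands of the 300 bases, CCGGAA, the core bound by ETS factors, was in 28 of 58 member promoters (48.3%) and in 15.0% of all promoters. AANATGGC, the core bound by YY1, was in 7 of 58 (12.1%) and in 6.96%. CCGGAA on the opposite strand reads TTCCGG and can overlap the end of a pyrimidine run. A missing match says only that these letters are not in the window.

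The main comparison set each dose against FCA. Differences were tested with limma on log2(FPKM + 1) over all 11611 records, with Benjamini-Hochberg adjustment over all of them, and no member had an adjusted p under 0.05 in any of the 7 comparisons made. An F test on FPKM in the manner of Ballgown also called 0 members, and at most 2 of all records in a comparison. The exact permutation test (two-sided) cannot go below 0.1 with 3 libraries in each group. A p that misses the threshold does not show that levels were equal.

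At 10 µM the members were slightly lower than in FCA as a group. Their median log2 fold change was -0.08 (quartiles -0.15 and 0.03), against -0.01 over all records, and 49 of 70 members (70%) were below 0, against 51.7% of all records. Without the second library of FCA the median was -0.05. By limma 0 members were called, with a background of 0.172% of records called, and 3 had an unadjusted p under 0.05, 1 higher and 2 lower, against 7.54% and 4.34% of records. All 3 AT10 libraries lay below all 3 FCA libraries for 13 members (18.6%), with 9.18% of records doing so, and above them for 3 members (4.29%), with 10.7% of records doing so. The members varied together over the libraries, so counts of members here and in the other comparisons are not independent observations. In none of the 7 comparisons did a member meet the criterion of the study, which joins the unadjusted p to a log2 fold change beyond 1 in either direction. The share of records that met it was 0.706% for AT10, 0.62% for AT1 and 0.758% for AT01 against FCA, 0.594% for AT10 against AT1, 0.672% for AT10 against AT01, 0.568% for AT1 against AT01 and 0.491% for the 9 TCDCA libraries against FCA.

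The smallest unadjusted p at 10 µM was that of Rpl36, a small protein of the large subunit. It had 132, 145.5 and 145 FPKM in FCA and 116, 103 and 119 FPKM in AT10. The groups did not overlap, and the log2 fold change was -0.32 (SE 0.08, limma adjusted p = 0.225, exact permutation p = 0.1). Rps27a, which is made as a fusion with ubiquitin, was the third of the members named for this dose and lay the other way, with 174, 178 and 164 FPKM in FCA and 204, 181 and 195 FPKM in AT10 (log2 fold change 0.17, SE 0.07, limma adjusted p = 0.411).

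The members also lay slightly lower at 1 µM. The median log2 fold change against FCA was -0.12 (quartiles -0.18 and 0.02), against 0.02 over all records, and 52 of 70 members (74.3%) were below 0, against 46.7% of records. None was called, with 0.0947% of records called, and 8 members had an unadjusted p under 0.05 in limma, 1 higher and 7 lower, against 5.56% and 5.44% of records. Without overlap, 19 members (27.1%) lay below FCA, against 10% of records, and 2 (2.86%) above, against 9.87%. Without the third library of AT1, the lowest of the 12 for these genes, the median log2 fold change was -0.03.

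Rpl10a, at the L1 stalk where spent tRNA leaves, had 359, 361 and 337 FPKM in FCA and 298, 305 and 284 FPKM in AT1, a log2 fold change of -0.25 (SE 0.06, limma adjusted p = 0.380). Rpl28 had 273, 282 and 251 FPKM in FCA and 218, 231 and 209 FPKM in AT1, a log2 fold change of -0.29 (SE 0.07, limma adjusted p = 0.420). Both genes were lower in each AT1 library than in any FCA library, the third AT1 library being the lowest but not apart from the others. A record described as L10a-like, left out by its name, was at 142 to 180.2 FPKM in 8 libraries and at 0.13 to 1.12 FPKM in the other 4, and with its FPKM added to Rpl10a the log2 fold change at 1 µM became -0.42 (limma adjusted p = 0.463). The number of libraries in which this copy was low was 1 in AT10, 1 in AT1, 2 in AT01 and 0 in FCA.

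At 0.1 µM the group as a whole lay close to FCA. The median log2 fold change was -0.03 (quartiles -0.08 and 0.05), against 0.00 over all records, and 38 of 70 members were below 0. By limma 0 members were called, with 0.0947% of records called, and at an unadjusted p under 0.05 there were 0 higher (2.57% of records) and 1 lower (4.03% of records). Without overlap, 6 members (8.57%) lay below FCA, against 8.06% of records, and 0 above, against 5.97%. The median turned to 0.08 without the third library of AT01 and was 0.00 without the second of FCA.

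The summed FPKM of the 71 genes overlapped between FCA and each dose. It was 25110 ± 1291 FPKM in FCA, 24621 ± 2081 in AT01, 23252 ± 1639 in AT1 and 23542 ± 1003 in AT10 (mean ± SD, n = 3). As a share of the library's FPKM this was 8.36% ± 0.31, 8.23% ± 0.34, 7.83% ± 0.45 and 8.14% ± 0.19 (SD, n = 3). FCA had the highest group mean for 32 members and AT1 the lowest for 34, against 29.3% and 20.01% of all records. The 3 comparisons with FCA share its 3 libraries, and the second of these was high for these genes, with 18 of 70 members at their maximum there.

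**Figure D5:**
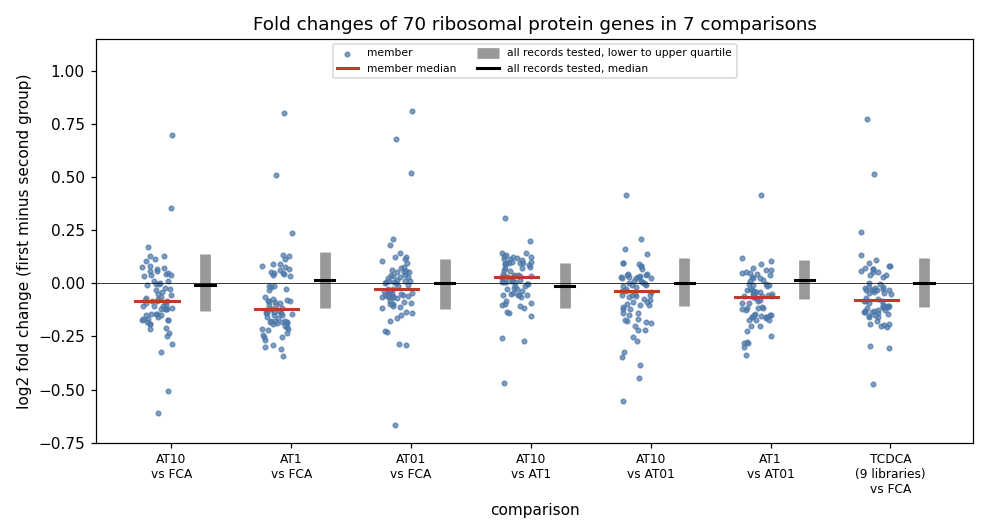
Log2 fold changes (vertical axis, first minus second group, log2(FPKM + 1) scale) of the 70 members in 7 comparisons (horizontal axis): dots are members and red lines their medians, grey bars run from the lower to the upper quartile of all 11611 records tested and black lines are their medians. Member medians lie between -0.12 (AT1 against FCA) and 0.03 (AT10 against AT1); that of AT1 against FCA lies just below the lower quartile of all records, and the other 6 lie within the quartiles.

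All 9 TCDCA libraries lay below all 3 FCA libraries for 4 members, among them Rpl14, Rpl23a and Rps10. This is 5.71% of members, against 1.9% of records, and 0 members lay above, against 0.956%. Rpl14, on the solvent side of the large subunit, had 355, 362 and 350 FPKM in FCA, 318, 327 and 271 in AT01, 313, 316 and 280 in AT1, and 332, 311 and 325 in AT10. The log2 fold change of the 9 against the 3 was -0.20 (SE 0.06, limma adjusted p = 0.311, exact permutation p = 0.0182). At the single doses it was -0.14 at 10 µM, -0.23 at 1 µM and -0.22 at 0.1 µM, with limma adjusted p of 0.381, 0.420 and 0.720.

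Rps10, near the entry of the mRNA channel, had 368, 353 and 357 FPKM in FCA and 293 to 346 FPKM under TCDCA (log2 fold change -0.11, SE 0.05, limma adjusted p = 0.422, exact permutation p = 0.0318). Rpl23a had 985, 1013 and 999.5 FPKM in FCA and 776 to 982 FPKM under TCDCA. Over all members the pooled comparison gave a median log2 fold change of -0.08 against 0.00 for all records, with 0 members called by limma (0.0258% of records called) and 4 at an unadjusted p under 0.05, of which 0 were higher (5.86% of records) and 4 lower (6.15% of records). The median was -0.05 without the third library of AT1.

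The marker sums of cycling cells and of smooth muscle and myofibroblasts also separated FCA from the TCDCA libraries. Those of FLS, macrophages, endothelium, adipocytes, chondrocytes and T and B cells overlapped. The 4 cycling markers Mki67, Top2a, Ccnb1 and Cdk1 summed to 96.6 to 101 FPKM in FCA and 105 to 126 FPKM under TCDCA. The 4 smooth muscle and myofibroblast markers with a record summed to 307 to 410.0 FPKM in FCA and 159 to 303 FPKM under TCDCA. Acta2 made up most of this second sum, with 263 to 370.1 FPKM in FCA and 125 to 255.5 FPKM under TCDCA, while the median log2 fold change of the 4 genes was 0.00. All 4 cycling genes and all 4 smooth muscle and myofibroblast genes had a mean of at least 1 FPKM. The part of these shifts in the lower values of the 4 members was not tested.

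Between doses the members differed little. AT10 against AT1 gave a median log2 fold change of 0.03, with 0 members called by limma (0.258% of records called) and 4 at an unadjusted p under 0.05, 2 higher and 2 lower, against 2.72% and 3.74% of records. Without overlap, 4 members (5.71%) were higher, against 5.7% of records, and 2 (2.86%) were lower, against 8.16%. AT10 against AT01 gave -0.04, with 0 called (0.0689%) and 2 at an unadjusted p under 0.05 in limma, 1 higher and 1 lower, against 2.14% and 2.82% of records. Without overlap, 1 member was higher (1.43%, against 4.64% of records) and 5 were lower (7.14%, against 6.47%). AT1 against AT01 gave -0.06, with 0 called (0.129%), and 53 of 70 members were below 0 against 44.0% of records. This median was -0.16 without the third library of AT01 and -0.02 without the third of AT1. At an unadjusted p under 0.05 in limma, 0 were higher (1.72% of records) and 2 lower (1.71%), and without overlap 0 were higher (4.86%) and 5 lower (7.14%, against 3.75%).

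Rps20, a protein of the head of the small subunit, was higher at 10 µM than at the lower doses without overlap. It had 220.3, 234 and 226 FPKM in AT10, 192, 158 and 201 in AT1, 201, 169 and 143 in AT01, and 224, 205 and 193 in FCA. The AT10 libraries lay above those of AT1 (log2 fold change 0.31, SE 0.10, limma adjusted p = 0.748) and of AT01 (0.41, SE 0.13, limma adjusted p = 0.867), while AT10 and FCA overlapped. Rpl28 was also higher in AT10 than in AT1 (0.20, SE 0.06, limma adjusted p = 0.748).

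Rpl39, a small protein lining the peptide tunnel, had 23.2, 22.9 and 26.2 FPKM in AT10 and 43.6, 31.0 and 28.2 FPKM in AT1 (log2 fold change -0.47, SE 0.17, limma adjusted p = 0.748). Its FPKM were 23.4, 48.4 and 45.1 in FCA and 24.2, 32.2 and 46.4 in AT01, so values as low as those of AT10 also occurred in FCA and AT01. Rpl36 and Rps27 were lower in AT10 than in AT01 without overlap, by log2 fold changes of -0.25 (SE 0.10) and -0.27 (SE 0.11), both with a limma adjusted p of 0.867. Rps16, Rpl27 and Rpl13 were lower in AT1 than in AT01 without overlap, by -0.20 (SE 0.08), -0.30 (SE 0.12) and -0.16 (SE 0.07), each with a limma adjusted p of 1.

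Some members have known roles outside protein synthesis. Rps6, the S6 kinase substrate, had 438, 456 and 501 FPKM in FCA, 474, 483 and 327 in AT01, 435, 478 and 412 in AT1, and 507, 456 and 499 in AT10. A further record named Rps6 had a mean of 384 FPKM, and whether both records hold reads of the same gene was not tested. Rpl5 had 372, 417 and 423 FPKM in FCA and 391 to 466 FPKM under TCDCA, with all 3 AT10 libraries (424, 437 and 450 FPKM) above FCA. The margin was narrow, with the lowest AT10 library at 423.8 FPKM and the highest FCA library at 422.6 FPKM. The log2 fold change of Rpl5 at 10 µM was 0.12 (SE 0.07, limma adjusted p = 0.538). Rps3, which also acts in DNA repair, ran from 196 to 289 FPKM, and Rps19, mutated in Diamond-Blackfan anaemia, from 131 to 200.1 FPKM, each with both extremes within AT01. Rps27l, a paralog known as a p53 target, ran from 105 to 174 FPKM, also within AT01, in step with the other members (correlation 0.87).

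Related genes were followed as 5 lists, of which 1 gene was called in any of the 7 comparisons. Of all records, 0.0258% to 0.258% were called in a comparison, and 0.172% at 10 µM against FCA. The called gene was Nip7, which takes part in the assembly of the large subunit. It had 23.9, 27.2 and 25.7 FPKM in FCA and 12.9, 14.4 and 14.6 FPKM in AT10, and it fell at 10 µM (log2 fold change -0.83, SE 0.08, limma adjusted p = 0.0432). At the other doses it had 29.0, 13.2 and 24.2 FPKM in AT01 and 25.9, 14.6 and 27.2 FPKM in AT1, so 1 library of each also stood at the low level. The call rests on every library: leaving out any 1 of the 6 gave limma adjusted p of 0.0661 to 0.122, and 1 fit over all 12 libraries 0.401. Of the 44 biogenesis genes tested, 8 were higher and 2 lower than FCA at 10 µM at an unadjusted p under 0.05 in limma, with a median log2 fold change of 0.06. The background was 7.54% of records higher and 4.34% lower.

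The most abundant biogenesis genes were Ncl (168 FPKM) and Npm1 (108 FPKM), the main proteins of the nucleolus. Npm1 had 90.9, 92.0 and 100.1 FPKM in FCA and 129, 131 and 146 FPKM in AT10, with no overlap and no call. Over the 12 libraries Npm1 had a correlation of -0.61 with the member mean, so it tended to be high where the members were low. Translation factor genes had 0 of 34 called in each comparison, and at 10 µM against FCA 2 were higher and 0 lower at an unadjusted p under 0.05 in limma. Their most abundant genes were Tpt1 (993 FPKM) and the elongation factor Eef1a1 (853 FPKM), at the level of the highest ribosomal protein genes. Both are known TOP mRNAs, and their correlations with the member mean were -0.39 and 0.04.

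Mitochondrial ribosomal protein genes had 0 of 70 called, with 1 higher and 4 lower at an unadjusted p under 0.05 in limma at 10 µM against FCA. Their most abundant genes, Mrpl54 and Mrpl33, had means of 66.3 and 51.8 FPKM, well below those of most cytosolic members. The regulators of TOP mRNAs and growth had 0 of 24 called, 2 being higher and 2 lower at an unadjusted p under 0.05 in limma at 10 µM against FCA. Larp1 had 93.8, 119 and 91.6 FPKM in FCA and 102, 88.8 and 102 FPKM in AT10. Atf4, the amino acid response factor, had 135, 153 and 153 FPKM in FCA and 134, 33.7 and 170 FPKM in AT10, where the second library stood apart. The 5 paralogs and fusion genes tested beyond the members had 0 called, and Rpl7l1, a paralog used in assembly, had a mean of 61.5 FPKM.

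Records left out by their names bear on the levels of single members. The table held 108 pseudogene or locus-named records described as ribosomal proteins, 99 of them naming a member's protein. Of these records, 40 had a mean of at least 1 FPKM, and 13 were listed at 0 in at least 1 library and at 10 FPKM or more in another. Together the records summed to 1440 to 2308 FPKM per library. A record described as L9-like was listed at 195 FPKM in the first library of AT10 and at 0 in the other 11, while Rpl9 itself stayed between 64.8 and 87.0 FPKM. No tested member was listed at 0 in any library.

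Adding the copies and further records to their members changed the means of 6 members by more than 1.5 times. For Rps3a the mean went from 470.0 to 815 FPKM and for Rpl13 from 193 to 489 FPKM. Of 48 members with such records, the ratio of highest to lowest library became smaller for 18 and larger for 20, and the median correlation between members fell from 0.44 to 0.35. No member was called by limma after this addition either.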

How the data were processed

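RNA-seq was from 12 libraries. Per the labels and methods, reads were trimmed with cutadapt, aligned with HISAT2 and assembled with StringTie, and the authors deposited FPKM (fragments per kilobase, scaled to library size) per gene record to 2 decimals; the genome build is not given in the sources used here, and no counts were used. The labels and the methods name different sequencers, which was not resolved. Columns with group comparisons were not used.

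From the deposited FPKM, records averaging 1 FPKM or more were tested with limma 3.58.1 (trend) in R 4.3.3 on log2(FPKM + 1), 2 groups at a time, and for the 9 TCDCA libraries against FCA, with Benjamini-Hochberg adjustment over all records; fold changes are on this scale. Two-sided exact permutation tests used the difference of means. A few genes of the set and its lists are not reported here. The fits were tested on simulated data. Correlations were Pearson's. Named members were the 5 highest and 5 lowest in mean and in correlation, the 5 of widest range, members with set roles, and the 3 smallest unadjusted p values without overlap in each comparison; other lists gave called genes and the 2 most abundant. Members and lists were chosen with earlier results of these data known. Alternatives covered pseudocount 0.1, other filters, median-of-ratios scaling, summing by name, copies added (chosen after seeing the data), 1 fit over all groups, the replicate block, an F test and leaving out each library.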

Additional observations from a re-analysis of the deposited data

How the results depend on the processing

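All 111 counts of called members under the alternatives were 0, as in the main tests. The main tests called 3 to 30 of all records in a comparison, and no alternative called more than 50. With so few records called at all, these counts of 0 bear little on whether the members changed. Median log2 fold changes kept their size within the spread between replicates under every alternative except 1: with single libraries left out, AT1 against FCA ran from -0.157 to -0.0269, the latter without the third library of AT1. AT01 against FCA ran from -0.06 to 0.08, AT10 against AT01 from -0.13 to 0.01 and AT10 against AT1 from -0.01 to 0.07, so these 3 had no stable sign.

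The median pairwise correlation was 0.516 from deviations within groups, 0.396 with median-of-ratios scaling and 0.354 with copies added, and 0.392 to 0.472 with single libraries left out. The median correlation with the member mean was 0.791 from deviations within groups and 0.631 with copies added, and 0.652 to 0.721 with single libraries left out. With copies added the summed FPKM rose to 27340 in FCA, 26890 in AT01, 25320 in AT1 and 25800 in AT10. The cause of these changes was not tested beyond their construction.

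The call of Nip7 at 10 µM was lost under 10 of 15 alternatives, at adjusted p of 0.0661 to 0.401.

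No pairing by replicate number was seen in the values: deviations of the 18 same-numbered pairs correlated between -0.11 and 0.09, and 4 of 12 libraries matched their own number best. The study describes the numbers as repeated sets, and these values cannot tell whether the libraries were paired in the experiment. With the replicate block, 0 members were called in each comparison, but this fit and the F test each called 0 to 2 of the 11611 records at all, so their counts of 0 bear little on the members. The FPKM carry no counts per gene, and counting error was not estimated here.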
